A study of Danio rerio and Aquarana catesbeiana with 12 samples.

Results

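The extracellular matrix and matrix protease genes of the zebrafish table were chosen by their symbols alone, as genes of collagens, laminins, nidogen, perlecan, fibronectin, fibulins, elastin, lysyl oxidases, SPARC, TGFBI, matrix metalloproteinases and their inhibitors, ADAMTS proteases and HtrA proteases. The choice found 85 genes among 18315 transcript records, each symbol with 1 record. By role they were 21 basement membrane genes, 12 fibril collagen genes, 13 other collagen genes, 11 elastic fibre and lysyl oxidase genes, 4 fibronectin and matricellular genes, 10 matrix metalloproteinase genes, 2 TIMP genes, 8 ADAMTS genes and 2 HtrA genes. The remaining 2, col4a3bp and col4a3bpa, were found only because their symbols begin like those of collagen genes. They are named for a ceramide transfer protein, the first being cert1a in RefSeq, and are no matrix genes. A mean log2 CPM (reads per scaled library total, on the usual CPM scale) of at least 1 was reached by 78 of the 85.

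The retinal pigment epithelium (RPE) is the pigmented cell layer behind the photoreceptors. It rests on Bruch's membrane, a layered sheet of basement membranes, collagen and elastin between the RPE and the blood vessels of the choroid. Basement membranes are built from laminin trimers and networks of type IV collagen, joined by nidogen and the proteoglycan perlecan. Metalloproteinases, ADAMTS enzymes and the secreted serine protease HTRA1 cut matrix proteins, and TIMPs block the metalloproteinases. In humans, variants near HTRA1 are associated with age-related macular degeneration, a disease of the RPE and Bruch's membrane.

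RPE was dissected from zebrafish given thyroid hormone for 3 weeks and from zebrafish given the vehicle, with 3 libraries in each group. The labels give no strain, age, dose or number of fish per library, and leave unsaid whether replicates are separate fish, so the p-values reflect only how these libraries vary, which may be technical. Bullfrog libraries of the same series carry no gene symbols and were not analysed here. Total counts were 6647597 in hormone replicate 1, the shallowest library, and 10582772 to 12530697 in the other libraries. RPE markers were abundant, with a summed level of 19888, 52635 and 43645 CPM in hormone replicates 1, 2 and 3 and 15244 to 15812 CPM with vehicle (13 of 16 listed markers measured). The visual cycle gene rpe65a made up 12453, 32335 and 26093 CPM of the sums in hormone replicates 1, 2 and 3. With vehicle it made up 6688 to 7480 CPM. In hormone replicate 1, 9 of the 13 markers were lowest of all 6 libraries. The mean log2 CPM of the 13 markers was 8.26 in that library and 8.42 to 9.50 in the others. Photoreceptor markers were abundant too, at 48453 to 80408 CPM (14 of 15 measured), so the dissected tissue also held RNA of the retina. Of the 14, 9 were highest in hormone replicate 1, while rho was lowest there, at 25012 CPM. The mean log2 CPM of the 14 was 10.85 in hormone replicate 1 and 9.80 to 10.68 in the other libraries. The level of a gene in such bulk samples can differ through fewer cells of a type or through less RNA per cell, which cannot be told apart.

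The most abundant matrix genes were those of basement membranes, a collagen-binding protein and lysyl oxidases. Levels of different genes are compared here per length, as RPKM (CPM per kilobase of transcript), and are means over the 6 libraries. The highest level was that of sparc, for a secreted glycoprotein that binds collagen, at 97.9 RPKM. Next came col18a1, for the type XVIII collagen of basement membranes that gives rise to endostatin, at 63.0 RPKM, and loxl3, for a lysyl oxidase that crosslinks collagen and elastin, at 40.9 RPKM. The fibulin gene fbln2 stood at 26.4 RPKM, loxl3a at 24.8, the laminin beta chain gene lamb2l at 23.6, loxl3b at 20.8 and col9a2, for a chain of the fibril-associated type IX collagen, at 20.1 RPKM. The record named loxl3 in the file carries the symbol loxl3b in RefSeq. So loxl3 and the file's loxl3b may be copies of the same gene that share reads, and their levels are uncertain. Each is counted as a gene of its own in every count given here. The median over the 85 genes was 2.09 RPKM, against 6.36 RPKM over all records.

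In hormone replicates 1, 2 and 3, sparc stood at 61.0, 117 and 108 RPKM, and in vehicle replicates 1, 2 and 3 at 103, 88.7 and 109 RPKM. The groups overlapped, with hormone replicate 1 lowest of all. The levels of col18a1 were 27.1, 80.8 and 72.1 RPKM under hormone and 62.5, 62.6 and 72.7 RPKM under vehicle. Here too the hormone libraries lay on both sides of the vehicle libraries. Of the 18 genes with a mean of at least 10 RPKM, a limit set after the values were seen, 16 had their lowest level in hormone replicate 1, under TMM, RLE and total count scaling alike. The exceptions were htra1b and col4a1. The 16 include col4a3bp, which is no matrix gene. Among all 6667 records at that level, 35.4% were lowest in hormone replicate 1 with TMM scaling and 21.9% with total count scaling.

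Laminins are trimers of an alpha, a beta and a gamma chain, and 1 gene of each kind led its class here. The alpha chain gene lama5 stood at 10.8, 27.5 and 21.1 RPKM with hormone and at 15.9, 17.2 and 24 with vehicle. For lamb2l the levels were 13.1, 28.4 and 23.6 RPKM under hormone and 22.5, 25.9 and 27.9 under vehicle. The gamma chain gene lamc1 stood at 5.29, 9.93 and 7.67 RPKM with hormone and at 4.79, 5.32 and 6.22 with vehicle. All of these 3 genes were lower in hormone replicate 1 than in the other hormone libraries. The other laminin genes (lama1, lama4, lamb1a, lamb1b, lamb2, lamb4 and lamc3) had mean levels between 0.376 and 1.75 RPKM.

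All 6 type IV collagen chain genes were measured. The genes col4a3, col4a5, col4a1 and col4a6 had mean levels of 13.6, 10.5, 10.1 and 9.11 RPKM, and col4a4 stood at 4.19 RPKM. The col4a3 record was only 1173 bases long, against 4980, 7341 and 5175 for col4a5, col4a1 and col4a6. Its rank per length is therefore uncertain. In CPM col4a3 stood lower than these, at 14.1 ± 7.90 with hormone and 17.7 ± 6.19 with vehicle (SD, n = 3 each). For col4a6 the values were 43.8 ± 15.5 and 50.5 ± 8.54 CPM. The gene col4a2, whose chain joins that of col4a1 in the common type IV trimer, stood at only 1.16 RPKM, from 10 to 143 counts per library. Its levels were 4.54, 11.8 and 9.99 CPM under hormone and 0.793, 1.26 and 6.2 CPM under vehicle, so vehicle replicate 3 lay within the hormone range (edgeR adjusted p = 0.762 for a log2 difference of 1.70 with SE 0.77). Its partner col4a1 stood at 65.9, 87.4 and 81.1 CPM with hormone and 62.7, 65.8 and 80.8 with vehicle. The perlecan gene hspg2 had a mean of 10.1 RPKM, nid2a of 2.19 and nid1a of 0.449 RPKM. Among the 21 basement membrane genes 11 had a positive and 10 a negative log2 fold change, with a median of 0.06, beside 0.01 over all records. None passed the edgeR quasi-likelihood test at an adjusted p under 0.05, and 1, lamb4, had an unadjusted p under 0.05.

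With hormone set against vehicle, 0 of the 85 genes passed edgeR's quasi-likelihood test when p was adjusted over all 18315 records (threshold 0.05), where 1 record of the whole table passed, 0.00546% of all. Before adjustment 7 of the 85 genes had a p under 0.05, where 6.88% of all records had such a p. Of the 7, 3 lay above the vehicle level and 4 below it, against 3.7% and 3.18% of all records. DESeq2 called 2 genes, htra1b and adamts9, beside 1.6% of all records. Both were below the vehicle level, where DESeq2 called 0.688% of all records. On simulated counts 57 of 224 DESeq2 calls fell on records without a change, against 10 of 150 edgeR calls. The simulated records varied independently of one another, so these shares may differ in the real data. Every DESeq2 call given here is to be read with this limit. In the authors' deposited table, p-values adjusted by Benjamini-Hochberg passed 0.05 for 3 of the 85, the same 2 and col8a1a, beside 0.934% of all records. The log2 fold change was above 0 for 43 of the 85 and below 0 for 42, with a median of 0.002. Over all records it was above 0 for 9478 and below 0 for 8837, with a median of 0.01. The groups did not overlap in 8 of the 85 genes, against 13.3% of all records. In 3 of these all hormone libraries stood higher and in 5 lower, and the shares over all records were 6.86% and 6.4%.

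The gene with the smallest p was htra1b, a zebrafish counterpart of HTRA1, which codes for a secreted serine protease that cuts matrix proteins. Its counts were 116, 102 and 101 under hormone and 1179, 802 and 513 under vehicle. These are levels of 15.5, 8.42 and 10.4 CPM with hormone and 93.5, 72.3 and 51.3 CPM with vehicle. Every hormone library stood below every vehicle library. Averaged by group, it stood at 11.4 ± 3.64 CPM with hormone and 72.4 ± 21.1 with vehicle (SD, n = 3 each), a fitted level 6.37-fold lower with hormone (log2 fold change -2.67, SE 0.31). The edgeR adjusted p was 0.0988, from an unadjusted p of 8.09e-05, and other settings gave adjusted p-values between 7.18e-12 (DESeq2) and 0.525 (edgeR, hormone replicate 3 left out). Without hormone replicate 1 the gene passed the edgeR test (log2 fold change -2.95, adjusted p = 0.0263), as did 0.573% of all records. A two-sided exact permutation test over its levels had p = 0.1, which no result with 3 libraries a group can go below. The paralog htra1a had 6 to 16 counts per library, at 0.816 ± 0.453 CPM with hormone and 1.08 ± 0.522 with vehicle (SD, n = 3 each). Its log2 fold change was -0.43 (SE 0.59), and the groups overlapped.

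Over the 6 libraries the log2 CPM of htra1b was most like that of 5 records outside the matrix genes, among 7686 whose log2 CPM averaged 4 or more. They were LOC100002007, described in the file as similar to an ornithine decarboxylase antizyme (Pearson's r = 0.988), the orphan nuclear receptor gene rorcb (0.983), the beta thymosin gene tbeta-a (0.982), the kinase gene stk35 (0.977) and tp53inp1, a p53-inducible gene (0.976). All 5 genes also stood lower in every hormone library. That follows largely from the choice, since they were picked by likeness to htra1b over the same libraries. The antizyme record, for instance, stood at 31.6 ± 7.32 CPM with hormone and 102 ± 19.9 with vehicle (SD, n = 3 each).

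The ADAMTS gene with the smallest p was adamts9, whose product is known in mammals to cut the proteoglycan versican. Its hormone levels were 1.73, 3.30 and 5.46 CPM, from 13, 40 and 53 counts, and its vehicle levels 12.8, 9.20 and 13.2 CPM, from 162, 102 and 132 counts. The groups did not overlap, and hormone replicate 1 was lowest. The log2 fold change was -1.73 (SE 0.40), with an edgeR adjusted p of 0.339 and a DESeq2 adjusted p of 0.0101. Other settings put its adjusted p between 0.0101 (DESeq2) and 0.858. For the other 7 ADAMTS genes, including the protease-free adamtsl3, log2 fold changes lay between -0.45 and 0.54 and the groups overlapped. The record named adamts3 in the file carries the symbol adamts2a in RefSeq.

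A pair of type VIII collagen genes stood apart in opposite directions. Type VIII is a short-chain collagen that forms sheet-like networks in Descemet's membrane of the cornea and around blood vessels. The gene col8a1b stood at 3.07, 4.54 and 4.53 CPM with hormone and at 1.67, 2.71 and 1.70 CPM with vehicle, from 17 to 55 counts per library, and all hormone libraries were higher. Its log2 fold change was 1.0 (SE 0.33, edgeR adjusted p = 0.583). The gene col8a1a, named here after its values were seen, had 0, 4 and 2 counts with hormone and 16, 13 and 19 with vehicle. These correspond to 0.179 ± 0.167 and 1.45 ± 0.395 CPM (SD, n = 3 each), where 3 counts equal 0.238 to 0.400 CPM, so the hormone level is at the limit of detection. Its edgeR adjusted p was 0.387 and its DESeq2 adjusted p 0.0513. The difference between the responses of the pair was not tested.

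**Figure D1:**
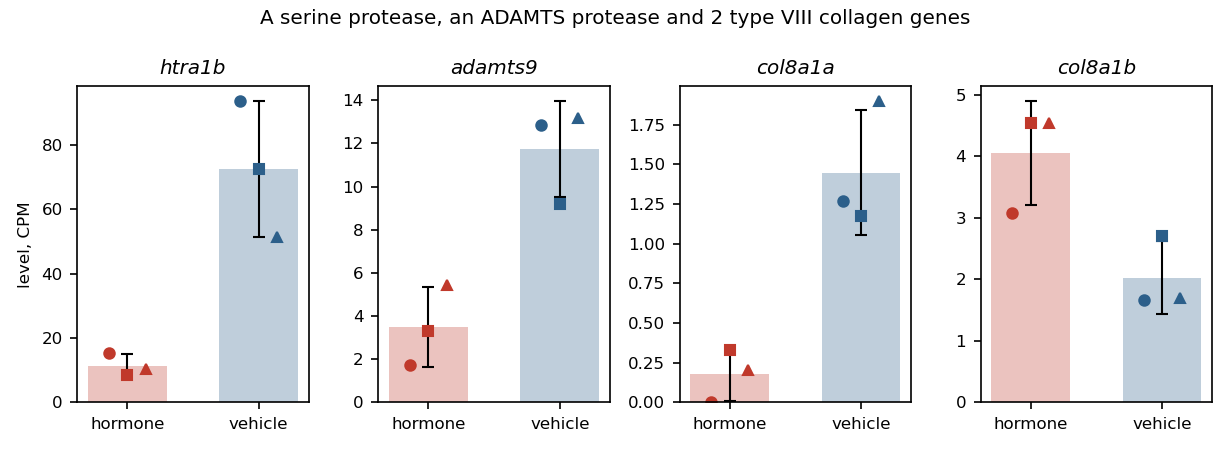
Level in CPM of htra1b, adamts9, col8a1a and col8a1b in each library (circles, squares and triangles for replicates 1, 2 and 3), with bars at the group means and error bars of 1 SD, n = 3 each. All hormone points of htra1b, adamts9 and col8a1a lie below all vehicle points, and those of col8a1b lie above.

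Among the fibril collagens, the paralogs col11a1a and col11a1b, for a chain that regulates fibril width and is prominent in cartilage and vitreous, both stood higher in every hormone library. The levels of col11a1a were 6.54, 10.8 and 8.55 CPM under hormone and 6.11, 6.13 and 5.6 under vehicle (log2 fold change 0.54, SE 0.23). Those of col11a1b were 4, 5.28 and 3.71 CPM under hormone and 2.78, 2.62 and 1.80 under vehicle (0.85, SE 0.29). The edgeR adjusted p was 0.731 and 0.621. In the opposite direction, col27a1a, for a fibril collagen of cartilage, stood at 11.5, 29.8 and 32.4 CPM with hormone and at 35.5, 46.1 and 45.4 with vehicle (a log2 difference of -0.78 with SE 0.37, edgeR adjusted p = 0.789). Its paralog col27a1b, the most abundant fibril collagen gene at 12.7 RPKM, stood at 21.2, 65.2 and 64.5 CPM against 69.7, 64.6 and 94.9 CPM, with overlap.

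The gene for the main cartilage and vitreous collagen, col2a1a, had tightly grouped vehicle levels of 23.9, 25.5 and 25.0 CPM. With hormone it stood at 26.8 CPM in replicate 1 and at 11.4 and 12.6 CPM in replicates 2 and 3. With all libraries its log2 fold change was -0.56 (SE 0.33, edgeR adjusted p = 0.86). Without hormone replicate 1 it passed the test, at -1.05 with an edgeR adjusted p of 0.0405, and over the alternatives its adjusted p ranged from 0.0405 to 0.9998. Its low libraries were those with the highest summed RPE marker level, 52635 and 43645 CPM. Of these sums rpe65a, itself higher in every hormone library, made up 32335 and 26093 CPM. The mean log2 CPM of the 13 RPE markers was also highest in these libraries, at 9.50 and 9.31. The part of RPE content in the col2a1a difference was not tested. The type I collagen genes col1a1a, col1a1b and col1a2, of bone, skin and other fibrous tissue, had mean levels of 1.29, 0.453 and 0.673 RPKM and overlapping groups.

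Of the other collagens, col9a2 and col9a3, for chains of the type IX collagen that coats type II fibrils, were the most abundant, at 20.1 and 17.2 RPKM. Both were lowest in hormone replicate 1, at 35.0 and 23.8 CPM, while the other libraries held 47.2 to 80.2 and 44.0 to 81.4 CPM. The third chain gene, col9a1 (col9a1b in RefSeq), stood lower per length, at 1.28 RPKM, with 5 to 87 counts per library. The summed level of cartilage and bone markers was likewise lowest in hormone replicate 1, at 209 CPM against 301 to 341 CPM elsewhere. Of 19 listed markers 6 were measured, none at 0, and the bone markers runx2b, sp7 and bglap were not among them. Of the 209 CPM, the transcription factor genes sox5, sox9a and sox9b made up 79.3, 66.6 and 39.1 CPM. In this library 4 of the 6 markers were lowest, while matn3a was highest and sox5 lay within the range of the other libraries. The part of these markers in the collagen levels was not tested.

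Fibronectin, a glycoprotein that links cells to the matrix, has a pair of genes in zebrafish. The one named fn1 in the file (fn1a in RefSeq) stood at 15.3, 2.23 and 8.65 CPM with hormone and at 1.35, 2.98 and 2.20 CPM with vehicle. Hormone replicate 2 lay within the vehicle range, and hormone replicates 1 and 3 lay above it. The log2 fold change was 1.99 (SE 0.69, edgeR adjusted p = 0.631). The paralog fn1b ranged from 2.71 to 52.6 CPM over the vehicle libraries and from 6.69 to 31.1 over the hormone libraries, without an order by group. The gene tgfbi, whose human counterpart is mutated in corneal dystrophies, stood at 2.95 ± 1.27 CPM with hormone and 3.99 ± 3.24 with vehicle (SD, n = 3 each), a log2 difference of -0.44 (SE 0.70). Its direction turned without vehicle replicate 3 (0.35).

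The elastic fibre and lysyl oxidase genes included 6 with lysyl oxidase-like symbols. Of these loxl3a stood at 32.8, 141 and 78.9 CPM with hormone and at 41.5, 41.9 and 40.0 CPM with vehicle. The vehicle libraries lay close together, while the hormone libraries spanned both sides of them, with replicate 1 below. The log2 fold change was 1.04 (SE 0.47, edgeR adjusted p = 0.76). For loxl1, whose product is needed for elastic fibres in mice, the levels were 14, 40.0 and 24.3 CPM under hormone and 31.3, 38.3 and 49.1 under vehicle (log2 fold change -0.59, SE 0.38). The elastin gene elna, with a mean of 1.5 RPKM, stood at 5.58 ± 1.64 and 5.2 ± 0.699 CPM, and efemp2 (efemp2a in RefSeq), for a fibulin of elastic fibres, at 6.09 ± 1.48 and 4.37 ± 1.31 CPM (SD, n = 3 each). The fibulin gene fbln1 spread widely, from 1.27 to 40.1 CPM over the vehicle libraries. None of the 11 had an unadjusted p under 0.05, and all 11 had overlapping groups.

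The 10 metalloproteinase genes were of low to moderate level, from 0.472 to 4.39 RPKM, and all had overlapping groups. Most abundant per length was mmp23bb, for a membrane-anchored enzyme, at 6.77 ± 2.01 CPM with hormone and 8.07 ± 1.37 with vehicle (SD, n = 3 each). The smallest p among those whose log2 CPM averaged 1 or more was that of mmp2, for a gelatinase that degrades type IV collagen, with 15.7, 3.72 and 8.14 CPM against 3.25, 5.14 and 8.80 CPM (log2 fold change 0.67, SE 0.58, edgeR adjusted p = 0.945). Below that level, mmp14a had 19, 1 and 48 counts with hormone and 2, 7 and 16 with vehicle. Log2 fold changes were positive for 5 genes and negative for 5. The gene mmp14b, for a membrane-type enzyme that activates MMP2 in mammals, stood at 12.7 ± 4.03 and 14.3 ± 1.30 CPM (SD, n = 3 each). Their inhibitor genes timp2a and timp2b stood at 10.8 ± 7.47 against 12.5 ± 1.78 CPM and at 3.68 ± 1.52 against 5.55 ± 1.41 CPM (SD, n = 3 each). Both had their lowest level in hormone replicate 2 and log2 fold changes of -0.22 (SE 0.46) and -0.61 (SE 0.38), and the sign of timp2a turned without that library (0.09).

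The matrix genes also differed among libraries of the same group. Of the 85, 28 (32.9%) were lowest and 26 (30.6%) highest in hormone replicate 1. These shares lay near those of all records, 27% and 28.6%. By role, 9 of 21 basement membrane genes (42.9%) and 7 of 11 elastic fibre and lysyl oxidase genes (63.6%) were lowest in this library. The summed level of the basement membrane genes was 644 CPM in it, against 963 to 1323 CPM in the other libraries, and 726 against 1007 to 1269 CPM with total count scaling. Of the protease genes 6 of 10 metalloproteinase and 5 of 8 ADAMTS genes were highest there, and of the basement membrane genes 5 of 21 (col15a1b, lama1, lama4, lamb1b and lamc3). Vehicle replicate 3 was highest for 28 of the 85, against 19.9% of all records. Vehicle replicate 1 was lowest for 21, against 11.7%.

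Markers of other tissues also stood apart in hormone replicate 1. Summed markers of choroid endothelium were at 168 CPM there and at 50.4 to 78.0 CPM in the other libraries (9 of 19 listed markers measured, none at 0). Of the 168 CPM, kdr, vwf and cdh5 made up 60.8, 32.8 and 26.4 CPM. Of the 9 markers 5 were highest in hormone replicate 1, while flt4 was highest in hormone replicate 2 and tie1, fli1a and fli1b in vehicle replicate 3. Summed inner retina and Muller glia markers were at 1875 CPM in hormone replicate 1 and at 1014 to 1554 CPM elsewhere (18 of 20 measured). Of the 18, 13 were highest in this library. The glial genes glula, glulb and slc1a3a were not, and at 702, 8.94 and 10.3 CPM they lay within the range of the others. The glial gene gfap was highest in it, at 5.07 CPM. Of the 14 measured photoreceptor markers 9 were likewise highest in hormone replicate 1, while rho was lowest there. Of the 13 RPE markers 9 had their lowest level of all 6 libraries in hormone replicate 1. Fibroblast and mural cell markers summed to 134 to 169 CPM over all 6 libraries (11 of 20 measured). Of this pdgfrb made up 57.2 CPM in hormone replicate 1, its lowest library, and 79.6 to 102 CPM in the others. The mean log2 CPM of the 11 was 2.82 in hormone replicate 1 and 2.07 to 2.60 elsewhere. Taken singly, 2 of the 11 were highest and 1 lowest in hormone replicate 1. The part of these tissues in the matrix gene levels was not tested.

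**Figure D2:**
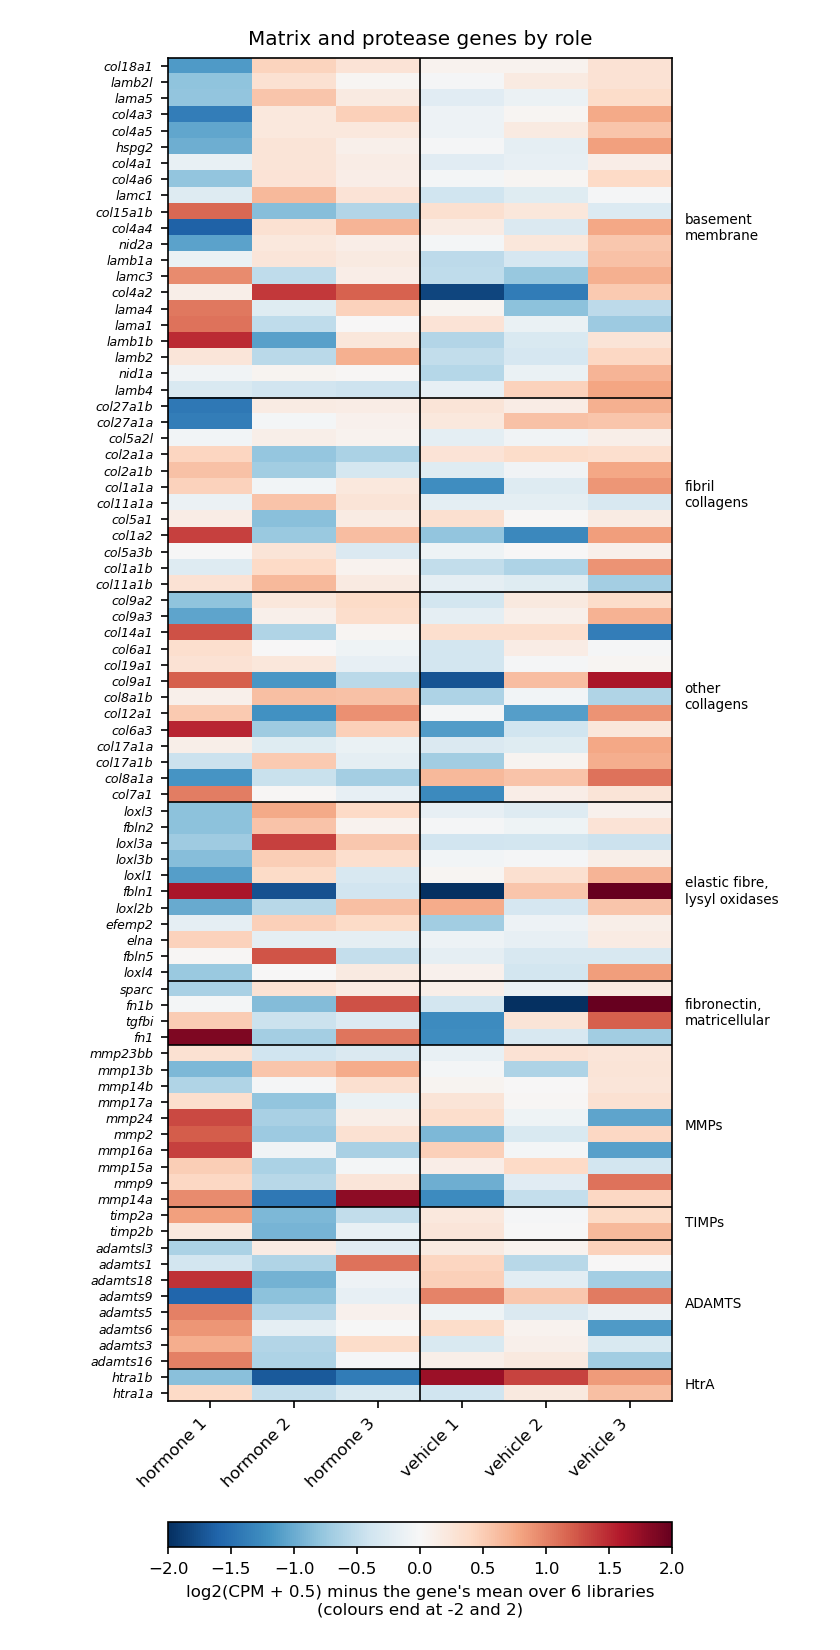
Heat map of 83 matrix and protease genes by role, from most to least abundant per length within each role, showing log2(CPM + 0.5) in each library minus the gene's mean over the 6 libraries. Hormone replicate 1 is the lowest column in 9 of 21 basement membrane genes and the highest in 6 of 10 metalloproteinase genes. Over all records the shares lowest and highest there are 27% and 28.6%. The row of htra1b is blue in all hormone and red in all vehicle libraries.

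The basement membrane gene with the smallest p, lamb4, was among the least abundant, with 12, 18 and 14 counts under hormone and 23, 34 and 40 under vehicle. These are 1.51 ± 0.0822 and 2.96 ± 1.09 CPM (SD, n = 3 each), with every hormone library lower. The fitted difference was -0.96 on the log2 scale (SE 0.37, edgeR adjusted p = 0.684). The vessel laminin gene lama4 stood at 12.9, 4.95 and 8.34 CPM with hormone and at 6.19, 3.16 and 4 with vehicle (a log2 difference of 0.96 with SE 0.42, edgeR adjusted p = 0.747). It was highest in hormone replicate 1, as were the summed choroid endothelium markers and 5 of the 9 taken singly, and 28.6% of all records. Without that library its log2 fold change was 0.57 (SE 0.38). The part of endothelium in the lama4 level was not tested. For lamc1 the log2 fold change was 0.49 (SE 0.24, edgeR adjusted p = 0.803), and 1 hormone library, replicate 1 at 32.0 CPM, lay within the vehicle range of 29.0 to 37.7 CPM. For lamb2l, col18a1, sparc, fbln2 and col9a2, 5 of the most abundant genes, log2 fold changes were -0.23, -0.14, -0.07, -0.02 and -0.07, with SEs of 0.28, 0.38, 0.26, 0.34 and 0.34. All of these 5 turned positive without hormone replicate 1, at 0.03, 0.21, 0.17, 0.28 and 0.21.

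**Figure D3:**
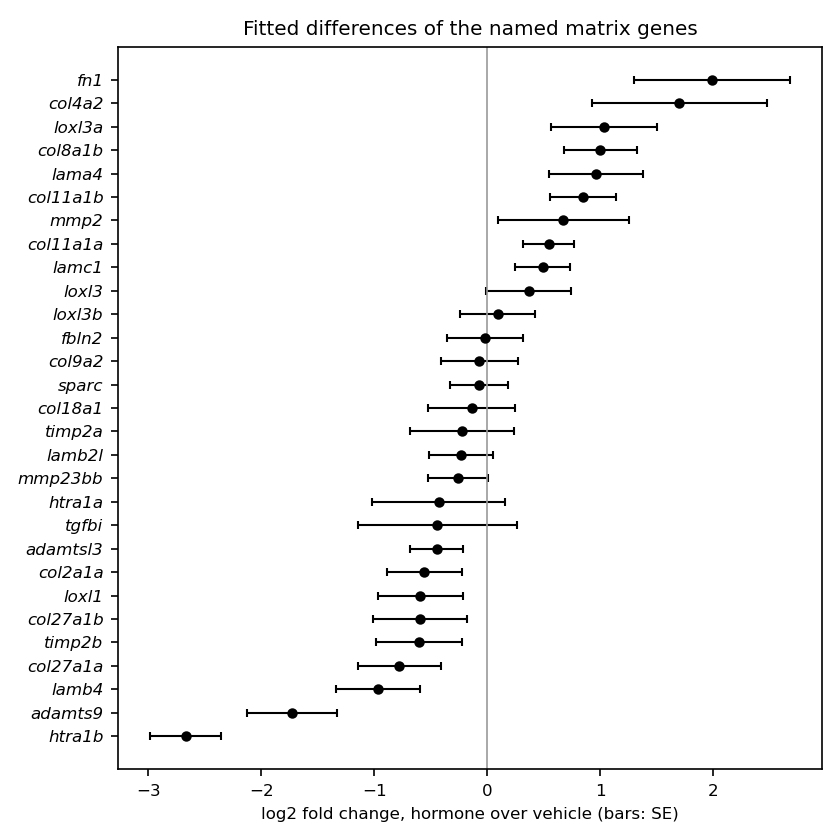
Fitted log2 fold change of hormone over vehicle for the 29 matrix genes named by rule among those with a mean log2 CPM of 1 or more, or as disease genes at any level, with bars of 1 SE from the edgeR quasi-likelihood fit over all records. Of these, htra1b at -2.67 and adamts9 at -1.73 lie lower than -1 (col8a1a, at -2.79, is under the level limit and not drawn), and fn1, at 1.99, is highest with a wide bar (SE 0.69).

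Other genes that act on the matrix were counted by lists chosen with earlier results of these data known, so the counts are a description only. None of these genes passed the edgeR test over all records, and the share of all records with an unadjusted p under 0.05 was 6.88%. Of 36 measured genes, from a list of 90, of proteoglycans and other matrix glycoproteins 26 had positive and 10 negative log2 fold changes (median 0.20). Over all 18315 records 9478 were positive and 8837 negative (median 0.01). Of the 36, 6 had an unadjusted p under 0.05 and 3 passed DESeq2, which called 1.6% of all records. These 3 were frem1a, frem2a and ltbp3. The products of frem1a and frem2a belong to a complex that anchors epithelia to their basement membrane, known from mice. The related genes fras1 and frem2b had log2 fold changes of 0.19 and 0.08, with overlapping groups. In the hormone libraries frem1a stood at 106, 152 and 188 CPM and in the vehicle libraries at 33.6, 24.8 and 12.4 CPM (log2 fold change 2.65, SE 0.40, edgeR adjusted p = 0.144, DESeq2 adjusted p = 1.11e-07). For frem2a the levels were 33.4, 51.3 and 46.8 against 24, 23.8 and 27.6 CPM (0.80, SE 0.19, DESeq2 adjusted p = 0.0356). The gene ltbp3, for a protein that holds latent TGF-beta in the matrix, stood at 53.1, 136 and 134 against 38.3, 37.3 and 50.4 CPM (1.36, SE 0.37, DESeq2 adjusted p = 0.0483). All hormone libraries were higher for each of frem1a, frem2a and ltbp3.

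Of 19 integrin genes, whose products are cell receptors for matrix, 7 had a positive and 12 a negative log2 fold change (median -0.08). The leukocyte integrin gene itgb2 had the smallest p, at 20.7 ± 3.49 CPM with hormone and 39.8 ± 8.30 with vehicle (SD, n = 3 each), a log2 difference of -0.94 (edgeR adjusted p = 0.313, DESeq2 adjusted p = 0.0225). Of 9 measured blood and macrophage markers, from a list of 16, 7 had a negative log2 fold change (median -0.45). The summed level of the 9 was 785, 573 and 421 CPM under hormone and 1500, 641 and 2092 CPM under vehicle. Most of this was the globin gene hbaa1, at 674, 423 and 278 against 1293, 493 and 1823 CPM. The marker slc4a1a stood at 7.47, 7.10 and 3.91 against 29.1, 8.75 and 24.7 CPM, lower in every hormone library. Its log2 fold change was -1.76 (SE 0.48, edgeR adjusted p = 0.457, DESeq2 adjusted p = 0.0441). For alas2 the log2 fold change was -0.88, with overlap. Among the 9, the macrophage and pigment cell receptor gene csf1ra stood at 60.9 ± 19.9 CPM with hormone and 97.3 ± 18.4 with vehicle (SD, n = 3 each), lower in every hormone library. Groups overlapped for mpeg1, coro1a and ptprc, with log2 fold changes of -0.15, -0.45 and -0.30. Positive were mpx at 0.45, with overlap, and lyz at 0.88, higher in every hormone library. The part of blood cells in the itgb2 level was not tested. Of 14 measured genes of collagen processing 7 were positive and 7 negative (median 0.004). The prolyl hydroxylase gene p4ha1b, whose enzyme modifies collagen chains, stood at 3.20, 1.24 and 1.75 CPM with hormone and at 12.3, 9.56 and 2.5 with vehicle, with vehicle replicate 3 inside the hormone range. Of 12 measured TGF-beta ligand, receptor, signal mediator and target genes 6 were positive and 6 negative (median 0.04). Of the 12, 4 had an unadjusted p under 0.05, 2 higher and 2 lower with hormone. The signal mediator genes smad3b and smad3a stood at 63.4 ± 7.83 against 94.1 ± 6.24 CPM and at 37.5 ± 2.23 against 49.7 ± 0.903 CPM (SD, n = 3 each), lower in every hormone library. Their log2 fold changes were -0.57 and -0.41, with edgeR adjusted p of 0.387 and 0.478 and DESeq2 adjusted p of 0.0374 and 0.0546. The ligand gene tgfb1a stood at 5.34, 2.06 and 2.47 CPM with hormone and at 0.872, 0.902 and 2 CPM with vehicle, higher in every hormone library (a log2 difference of 1.37 with SE 0.53, edgeR adjusted p = 0.685).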

How the data were processed

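Whole-number counts per transcript record were deposited by the authors for 6 zebrafish libraries, per the file headers. Bowtie 0.12.7 and edgeR were used, per the submitters' processing notes; the transcript set, build and use of strand are not given in the sources used here, so reads of antisense partners cannot be told apart. The deposited log2 fold change is vehicle over hormone and was not used further, and the authors' deposited p-values were adjusted here. A nameless total entry was left out, and filterByExpr removed none of the 18315 records.

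Hormone and vehicle were compared with edgeR 4.0.16 (R 4.3.3), by its quasi-likelihood test with TMM scaling, and Benjamini-Hochberg adjustment at 0.05 over all records. SEs were taken from the F statistic (absolute log2 fold change divided by the root of F). Log2 CPM used a prior count of 2. RPKM was computed here from CPM and the deposited length. Alternatives were RLE and total count scaling, DESeq2 1.42.0, limma 3.58.1 voom, no filter, a replicate block, leaving out each library, and a threshold of 0.1. The authors' p-values were an alternative added after seeing the data. The fits were tested on counts simulated independently for each record, with planted changes. There edgeR recovered 4% of log2 changes of 1 and 80% of those of 2, and DESeq2 42% and 94%. Of 150 edgeR calls 10 were records simulated without a change, and of 224 DESeq2 calls 57 were. No variation shared among records was simulated, so these rates may differ in the real data. Members and lists were chosen with earlier results of these data known. Named genes were, among those whose log2 CPM averaged 1 or more, per role the most abundant and the one with the smallest p; the 8 smallest p on each side; the 8 most abundant; and htra1a, htra1b and tgfbi whatever their level or values; other genes are given for context within their role. The rule also named timp3 and efemp1, but no record carried these symbols. RefSeq symbols (assembly GRCz12tu) were matched by accession for 62 of the 85 genes.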

Additional observations from a re-analysis of the deposited data

How the results depend on the processing

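The matrix genes called numbered 0 with RLE scaling, total count scaling, limma voom, no filter and the replicate block, 2 with DESeq2, 1 at an adjusted p under 0.1 and 3 with the authors' deposited p-values; with 1 library left out they numbered 0 to 2, the 2 being htra1b and col2a1a without hormone replicate 1. All records called numbered 1 in the main test, 8 with total count scaling, 292 with DESeq2, 0 with limma voom, 0 with the replicate block, 15 at an adjusted p under 0.1, 171 with the authors' deposited p-values and 0 to 105 with 1 library left out. Same-numbered libraries did not deviate together (correlations of 0.46, -0.39 and 0.10), so the numbers were not taken as pairs. Of 29 named genes 21 kept their direction in all 12 refits. The direction turned for loxl3b with the replicate block (-0.0091). With 1 library left out the log2 fold changes spanned -0.94 to 0.088 for timp2a, -0.40 to 0.21 for col18a1, -0.47 to 0.032 for lamb2l, -0.37 to 0.28 for fbln2, -0.15 to 0.41 for loxl3b, -0.24 to 0.17 for sparc, -0.91 to 0.35 for tgfbi and -0.30 to 0.21 for col9a2; the cause was not tested. The median of the 85 ranged from -0.09 without vehicle replicate 1 to 0.20 without vehicle replicate 3. Depth limits genes such as col8a1a, htra1a and mmp14a, with under 20 counts in most libraries.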
